A study of Homo sapiens with 6 samples.

Results

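The peaks described here are the sites listed for SMC1, a subunit of the cohesin ring, in IMR90 fibroblasts treated with inflachromene (ICM) and in senescent IMR90. Both lists were taken whole over chromosomes 1 to 22 and X, a peak was called shared when it overlapped a peak of the other list by at least 1 bp, and every peak was ranked within its own list. The ICM list held 17809 peaks and the senescent list 12927, which made 30736 of the 65603 peaks in all 6 lists of the series. A further list, of SMC1 in low-passage control cells (14883 peaks), and the CTCF lists of the same conditions (6728 peaks after ICM, 8577 in senescence) served as second readouts.

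IMR90 is a line of human fetal lung fibroblasts that stops dividing after prolonged culture. The series applied CUT&Tag, in which an antibody directs a transposase to the chromatin around its target, to 1 library per antibody and condition. The ICM library and its control carry the passage mark p16 and the senescent library p34, so treatment and passage differ together and cannot be told apart. All 6 titles also carry I79, and those with p34 name no treatment. They were read as the high-passage senescent sample that the series design gives for each antibody. The SMC1 title gives no number of days of ICM, whereas the CTCF library carries 6 days, and the agent itself, without a dose, is all that the labels state. With 1 library a side nothing could be tested against a spread between cultures. The intervals below cover counting over peaks only, and how deeply each library was sequenced is unknown.

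Cohesin entraps DNA within a ring of SMC1, SMC3 and RAD21 and extrudes chromatin loops until it meets CTCF, a DNA-binding insulator protein. It is loaded and enriched at active promoters and enhancers as well, where no CTCF need be present. ICM binds HMGB1 and HMGB2, abundant chromatin proteins that are depleted from nuclei in replicative senescence. The direct comparison asks where cohesin sites after chemical treatment and after replicative exhaustion coincide and where they part.

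The promoters shown next carried SMC1 peaks of high total signal in a single list and are shown as single examples. JUND encodes a subunit of the AP-1 transcription factor and TACR1 the receptor for substance P, and both were in the ICM list alone. PTK7 encodes a receptor-like protein of planar cell polarity and TNFRSF1A the main receptor for tumour necrosis factor, and both were in the senescent list alone. The sequences are from RefSeq on GRCh38.p14, 300 bases each from 250 before to 50 after the 5′ end, written 5′ to 3′ on the gene's strand, at chr19:18281573-18281872 (minus strand, JUND), chr2:75199471-75199770 (minus, TACR1), chr6:43076064-43076363 (plus, PTK7) and chr12:6342027-6342326 (minus, TNFRSF1A). Capitals mark CCAAT boxes, GC boxes with the letters GGGCGG and TATA boxes with the letters TATAAA, on either strand. The AP-1 site, searched as TGACTCA on both strands, occurred in none of these windows.
JUND: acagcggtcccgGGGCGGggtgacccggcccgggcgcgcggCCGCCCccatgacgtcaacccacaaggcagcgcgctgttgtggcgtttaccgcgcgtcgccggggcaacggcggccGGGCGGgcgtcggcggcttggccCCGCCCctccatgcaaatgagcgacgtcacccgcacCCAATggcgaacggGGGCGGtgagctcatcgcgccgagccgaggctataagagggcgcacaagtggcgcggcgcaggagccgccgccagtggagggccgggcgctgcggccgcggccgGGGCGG
TACR1: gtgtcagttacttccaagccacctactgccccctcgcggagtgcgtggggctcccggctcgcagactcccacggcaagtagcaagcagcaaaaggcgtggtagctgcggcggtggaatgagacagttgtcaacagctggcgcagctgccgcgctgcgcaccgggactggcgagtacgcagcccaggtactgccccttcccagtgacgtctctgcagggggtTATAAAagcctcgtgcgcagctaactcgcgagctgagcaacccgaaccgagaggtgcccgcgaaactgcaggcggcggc
PTK7: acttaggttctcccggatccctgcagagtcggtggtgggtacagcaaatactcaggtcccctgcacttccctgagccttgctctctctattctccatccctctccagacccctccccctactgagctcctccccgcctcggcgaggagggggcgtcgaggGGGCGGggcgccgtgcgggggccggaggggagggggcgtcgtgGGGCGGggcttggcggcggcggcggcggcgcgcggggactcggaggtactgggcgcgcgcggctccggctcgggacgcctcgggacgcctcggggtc
TNFRSF1A: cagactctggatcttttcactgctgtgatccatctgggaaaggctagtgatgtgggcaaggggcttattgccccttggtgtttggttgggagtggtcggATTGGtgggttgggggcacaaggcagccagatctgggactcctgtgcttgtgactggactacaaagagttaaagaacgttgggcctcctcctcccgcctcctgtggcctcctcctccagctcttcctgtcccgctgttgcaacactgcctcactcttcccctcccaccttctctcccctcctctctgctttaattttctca

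The JUND window had 77.0% G or C with 49 CpG dinucleotides and 6 GC boxes, and that of TNFRSF1A 55.7% with 4 CpG and no GC box. Both lie outside the middle range of their classes, as the quartiles of GC content were 60.3% and 71.7% for the ICM list alone and 60.3% and 72.3% for the senescent list alone, with a median of 28 and 27 CpG. Over whole classes the promoters of single-list peaks were nearly alike in sequence. Median GC content was 66.0% over 1567 promoters of the ICM list alone, 67.0% over 593 of the senescent list alone and 65.7% over 3181 in both, against 62.7% over all 15812 promoters with a sequence. A GC box was found in 72.6% of the first (95% CI 70.3 to 74.8), 75.2% of the second (71.5 to 78.6), 75.8% of the third and 58.5% of all promoters. The AP-1 letters were in 2.68%, 3.71%, 2.77% and 3.67% in the same order. CCAAT was present in 45.0% of promoters in both lists (43.3 to 46.8), and in 36.8% and 36.6% of those in the ICM or the senescent list alone, against 36.3% of all promoters. TATAAA stood in 5.62% and 5.40% of the single-list promoters and in 9.64% of all. These matches describe letters in a window and not binding sites.

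Of the ICM peaks, 9960 (55.9%, 95% CI 55.2 to 56.7) overlapped a senescent peak and 7849 (44.1%) did not. Of the senescent peaks, 9806 (75.9%, 75.1 to 76.6) overlapped an ICM peak and 3121 (24.1%) did not. With both lists cut to the length of the shorter one, 12927 peaks, the shares were 66.1% and 65.6% by total signal, and 61.4% and 60.9% by highest signal. Summits of single-list peaks lay a median of 33727 bp from the nearest senescent summit in the ICM list. In the senescent list they lay a median of 21969 bp from the nearest ICM summit. Such a summit stood within 1 kb of 79 and 27 of them, counts that the absence of overlap itself keeps low. With peaks up to 1 kb apart counted as shared, an alternative chosen after seeing the data, the shares became 58.2% and 77.5%.

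Peaks of high signal were shared nearly throughout. In the ICM list the shared portion went from 25.3% in the lowest 10% by total signal (the coverage summed over a peak) to 97.8% in the highest 10%. In the senescent list it went from 52.4% to 98.2%. Ranked by highest signal, the tallest coverage within a peak, the portions went from 39.6% to 90.1% and from 42.1% to 98.2%. Only 39 ICM peaks and 23 senescent peaks of the top 10% by total signal were in a single list, and all 39 of the former but 15 of the latter also overlapped a control SMC1 peak.

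**Figure D1:**
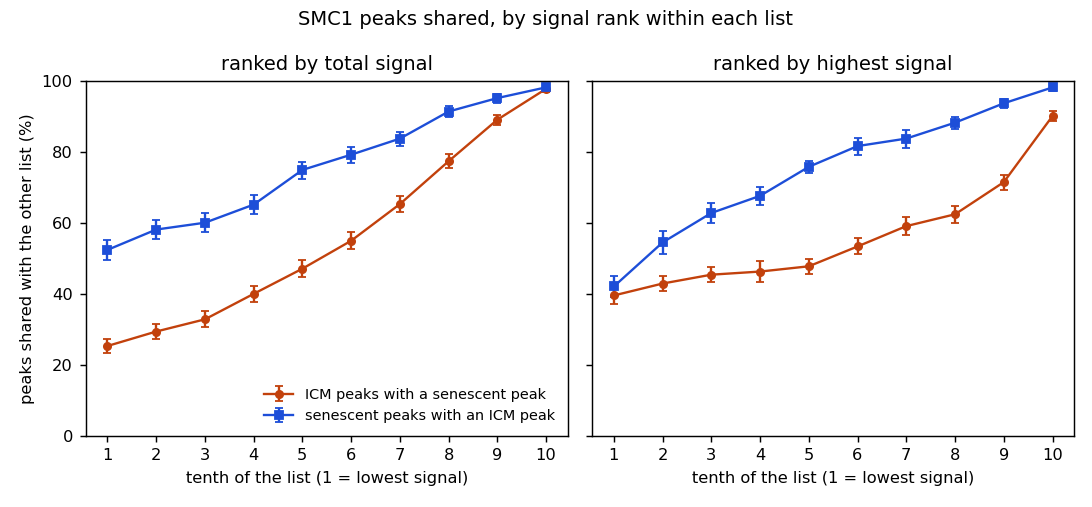
Percent of SMC1 peaks shared with the other list (y axis) in 10 parts of a list cut by percentile, from lowest to highest signal (x axis). Ranks are by total signal on the left and by highest signal on the right. By highest signal ties make the parts unequal, with 1147 to 2235 ICM and 820 to 2473 senescent peaks. Points are all peaks of such a part, and bars are exact 95% intervals over peaks. The ICM line climbs from 25.3% to 97.8% by total signal and the senescent line from 52.4% to 98.2%.

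Shared and single-list peaks differed in position, whereas both single-list classes had the same promoter share. The summit, the midpoint of the region of highest signal, lay within 1 kb of a gene's 5′ end in 37.4% of shared peaks in either list. It did so in 24.9% of ICM single-list peaks (1951, 95% CI 23.9 to 25.8) and in 24.9% of senescent ones (776, 23.4 to 26.4). Gene bodies held 50.5% and 49.2% of these, and 24.7% and 25.9% were intergenic. The equality was not kept in lists of equal length by highest signal, where the difference, ICM minus senescent, was -10.3 points.

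CTCF peaks of the same condition overlapped 41.4% of shared ICM peaks (40.5 to 42.4) but 16.1% of the single-list ones (15.2 to 16.9). In senescence the shares were 37.8% (36.9 to 38.8) and 21.4% (19.9 to 22.9). The CTCF peaks themselves were wider after ICM (median 1960.5 bp) than in senescence (1120 bp) and fewer, and the part of this in the shares was not tested. Read from the other side, 76.6% of ICM peaks with a CTCF peak were shared with senescence, against 47.0% of those without one. For senescent peaks these shares were 84.8% and 71.3%.

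With lists of full length and whole peaks matched by 1 bp or more, the single-list classes differed most in overlap with control SMC1 peaks. This order was not kept at equal length by highest signal. There the difference, ICM minus senescent, was 8.70 points for control peaks, -9.50 for CTCF peaks and -10.3 for promoters. Of the ICM single-list peaks, 3713 (47.3%, 46.2 to 48.4) overlapped a control SMC1 peak, and of the senescent ones 885 (28.4%, 26.8 to 30.0). The remaining 4136 and 2236 peaks were thus absent from the control list as well. Promoters made up 38.5% of the ICM single-list peaks that control cells had (36.97 to 40.1) but 12.6% of those they had not (11.6 to 13.6). For senescent single-list peaks the corresponding shares were 43.2% (39.9 to 46.5) and 17.6% (16.1 to 19.3). Of all single-list peaks at promoters, 73.3% in the ICM list and 49.2% in the senescent list had a control peak, compared with 39.98% and 21.99% in gene bodies and 36.1% and 20.4% between genes.

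**Figure D2:**
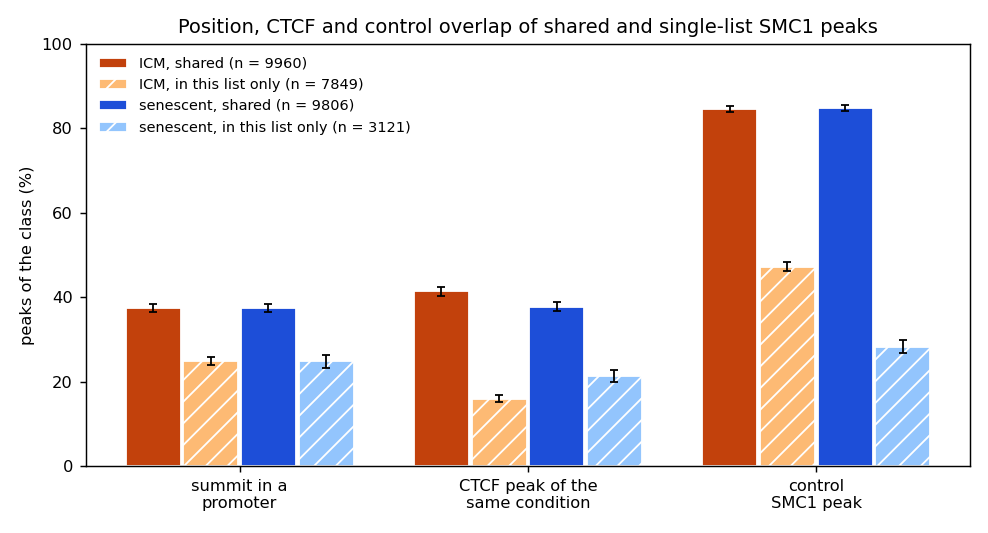
Percent of peaks (y axis) with the summit in a promoter, with a CTCF peak of the same condition, or with a control SMC1 peak, for shared peaks (solid) and peaks of 1 list only (hatched) of the ICM and the senescent list. Bars carry exact 95% intervals over peaks. Promoter shares are 24.9% in both single-list classes, while control peaks overlap 47.3% of ICM and 28.4% of senescent single-list peaks.

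The lists also differed in the shape of their peaks. ICM single-list peaks had a median width of 668 bp and a median highest signal of 14, against 838 bp and 17 for shared ICM peaks. Senescent single-list peaks were nearly as wide as shared ones (994 and 1008 bp) but lower, with a median highest signal of 9 against 12. Peaks of 2 kb or more numbered 49 among the senescent single-list peaks (1.57%) and 2 among those of the ICM list (0.0255%). Signal units of the lists are not on a common scale, so heights are compared within a list.

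Among single-list promoter peaks of ICM-treated cells, the largest by total signal was at the 5′ end of FRMD6-AS1, inside FRMD6, which encodes a FERM-domain protein of the Hippo pathway (chr14:51651227-51652714, total signal 15272, 98.6th percentile). It was followed by the promoter of ZSWIM6 (chr5:61330510-61332301, total signal 13786, 97.9th percentile) and by that of the uncharacterised LOC124903747 inside FBXO31, an F-box gene (chr16:87383611-87384318, 12499). The TACR1 promoter peak (chr2:75199204-75200945, 11011, 95.4th percentile) lay 134103 bp from the nearest senescent summit. At JUND (chr19:18281031-18281964, 9944, 93.8th percentile) that distance was 6219 bp. All 5 of these overlapped a CTCF peak of ICM-treated cells, and the one at JUND also a senescent CTCF peak, so that CTCF was listed at this promoter in both conditions and SMC1 in one.

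The largest single-list peaks in gene bodies after ICM stood in DLGAP1, a synaptic scaffold gene (chr18:3623865-3624551, total signal 12712), the RNA gene LOC105378813 (chr1:81174187-81175549, 11592), PDLIM1, whose product associates with actin fibres (chr10:95246470-95247989, 11010), the cytokine receptor kinase gene JAK1 (chr1:64917316-64917883, 10862) and the coactivator gene EYA2 (chr20:46958930-46959836, 10660). Between genes they lay 286764 bp from the 5′ end of UBE2V2, 9097 bp from METTL27, 3137 bp from SHCBP1L, 36210 bp from GTF2IRD1 and 30107 bp from DUSP1, a phosphatase of MAP kinases. The peak near DUSP1 (chr5:172800917-172801864) had a senescent summit 973 bp away, the closest among the 15 ICM peaks named by total signal. Ranked by highest signal, the leading ICM single-list peaks were in the ribosomal RNA gene RNA45SN1 and in GPR19 (highest signal 52 each), and again at LOC124903747 (51). RNA45SN1 is one of several near-identical copies, so its reads cannot be placed with certainty. All 15 ICM peaks named by total signal overlapped a control peak, and their widths ran from 556 to 1792 bp.

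The senescent single-list peaks of highest total signal had another shape. Of the 15 named, 11 were 2 kb wide or more, 9 overlapped a control peak and 2 a senescent CTCF peak, and by highest signal they ranked between the 11.8th and the 95.1st percentile of their list, whereas the 15 of the ICM list ranked between the 58.9th and the 98.9th of theirs. The promoter peaks were at PTK7 (chr6:43074890-43077714, total signal 10588, 96.0th percentile by total and 76.9th by highest signal) and at PLXNB2, a semaphorin receptor gene (chr22:50301603-50305579, 10103, 95.4th and 11.8th percentile). The others were at LENG9 (chr19:54462546-54465108, 9087), TNFRSF1A (chr12:6340305-6342536, 8897) and MVP, encoding the major vault protein (chr16:29819338-29822204, 8733). Those at PLXNB2 and MVP were absent from the control list. By total signal all 5 were in the top 10% of the senescent list, whereas by highest signal they ranked between the 11.8th and the 76.9th percentile.

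In gene bodies the largest senescent single-list peaks were in LDB1, whose product bridges LIM-domain factors and enhancers (chr10:102120235-102122416, total signal 13835), in the imprinted zinc finger gene PEG3 (chr19:56837517-56840050, 10762), in AHDC1 (chr1:27566354-27569890, 10649), in the antisense gene SBF2-AS1 (chr11:9765356-9766687, 10089) and in GSE1 (chr16:85234309-85236985, 9746). The peak in PEG3 lay 1410 bp from a 5′ end, was absent from control and overlapped a senescent CTCF peak. Between genes, the largest single-list peak of the senescent list was 10541 bp from ZFP36L1, which encodes an mRNA decay factor (chr14:68784449-68787533, total signal 19177, 99.7th percentile, 3085 bp wide). Others were 98202 bp from CHST15, 5079 bp from PPP1R3C, 155354 bp from LOC124900275 and 1874 bp from YPEL2. By highest signal the leading ones were near CCDC200 (27), in SESN3, a stress-induced sestrin gene (26), and near YPEL2 (23), and the SESN3 peak had no control counterpart.

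Some genes gathered single-list peaks of 1 condition. The genes named here were picked for holding no single-list peak of the other list. FRMD4A, a cell polarity gene, held 8 ICM single-list peaks, as did the protein kinase C gene PRKCH. SLC8A1, CUX1, LPP, MYLK and EXT1 held 7 each and DDAH1 held 6. MYLK encodes the myosin light chain kinase and LPP a focal adhesion protein, and 6 of the 7 peaks in MYLK, but 1 of the 7 in CUX1, overlapped a control peak. These are long genes, of 259.7 to 737.7 kb. Each also held ICM peaks shared with senescence, from 1 in PRKCH and EXT1 to 7 in LPP. On the senescent side CDH4, a cadherin gene, held 5 single-list peaks, none of which overlapped a control peak. BCR, ALPL, CABIN1, CXXC5, ARAP1, PLA2G4C and BCAR1 held 3 each. ICM peaks shared with senescence numbered 5 in BCAR1 and 4 in CABIN1, while CDH4, ALPL, ARAP1 and PLA2G4C held none. In all, 2789 protein-coding genes held an ICM single-list peak and 1480 a senescent one, and 475 held both.

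Shared peaks formed 9761 one-to-one pairs, each the best partner of the other. Their summits were a median of 55 bp apart, and 69.2% were within 100 bp. Percentiles by total signal correlated across pairs with a Spearman's rho of 0.551, by highest signal 0.589 and by width 0.439 (9761 pairs from the same 2 libraries, given as a description). The senescent peak was the wider one in 69.7% of pairs, with a median of 1008 bp against 841 bp. In the 8267 pairs that also had a control partner, rho by total signal was 0.689 between ICM and control, 0.545 between senescent and control and 0.546 between ICM and senescent.

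Within pairs, 661 ranked at least 50 percentiles lower in the senescent list (6.77%) and 307 at least 50 higher (3.15%). The imbalance was not kept when ranks were taken among the pairs alone, a choice made after seeing the data, which gave 383 lower and 415 higher. Pairs that ranked lower in senescence had a median width of 855 bp in the ICM and 794 bp in the senescent list, and a control partner in 91.8% of cases at a median control percentile of 64.1. Pairs that ranked higher in senescence were wider there, with medians of 682 bp in the ICM and 1338 bp in the senescent list. Of these, 68.7% had a control partner, at a median control percentile of 49.7. Over all pairs 84.7% had a control partner, at a median control percentile of 68.2. Only 139 of the 661 and 71 of the 307 also shifted by 50 percentiles by highest signal, and 40 and 36 shifted the opposite way. Promoters held 34.04% and 36.5% of these pairs, against 37.3% of all pairs.

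**Figure D3:**
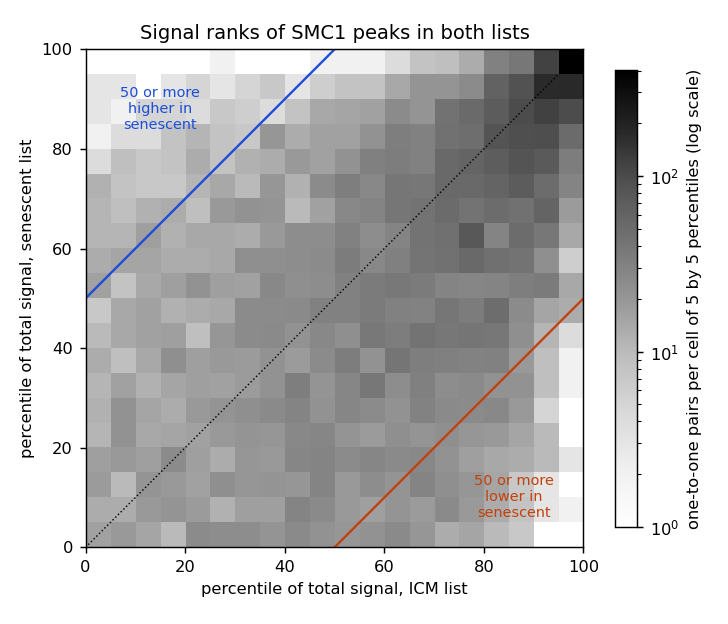
Percentile of total signal in the ICM list (x axis) against the senescent list (y axis) for 9761 one-to-one pairs of SMC1 peaks. Grey shading counts pairs in cells of 5 by 5 percentiles on a log scale, the dotted line marks equal rank, and the coloured lines mark a shift of 50 percentiles, past which lie 661 pairs (lower in senescent) and 307 pairs (higher in senescent).

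The largest shift towards ICM was at a site inside MACF1, which encodes a linker of actin and microtubules (chr1:39098356-39099292 in the ICM list). It stood at the 96.7th percentile after ICM (total signal 12153 and highest signal 51 in the units of that list) and at the 5.06th in senescence (2882 and 9 in the units of the other), and its summits were 52 bp apart. The EMP1 promoter (chr12:13195651-13196879) went from the 94.1st to the 4.45th percentile, and a site 53178 bp from NENF (chr1:212485620-212486312) from the 95.5th to the 6.18th with an identical summit. EMP1 encodes a small membrane protein of the tetraspan type. Sites in the sarcomere gene MYOM1 and in MFSD2B followed, at shifts of -86.2 and -84.5 percentiles, with the promoter of BOLA3, an iron-sulfur cluster assembly gene (-85.2), a site in the collagen gene COL4A2 (-84.8) and one in LOC112268263 (-84.2). The shift was also negative by highest signal at all 8, from -17.7 at LOC112268263 to -77.4 at MFSD2B, and all 8 overlapped a control peak.

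Ranked by highest signal, the sites that stood lower in senescence were in JAG1, the gene of a Notch ligand (chr20:10671404-10673197, 98.2nd to 11.8th percentile), ETS1, a transcription factor gene (chr11:128467323-128468113, 97.4th to 11.8th), the methyltransferase gene SMYD2 (93.9th to 11.8th) and CDKN1A, which encodes the cell-cycle inhibitor p21. The CDKN1A site lay 1833 bp from the 5′ end used here (chr6:36680378-36680847, highest signal 33 in the ICM list and 7 in the senescent list, each in its own units). By total signal it moved less, from the 65.1st to the 36.5th percentile, as its senescent peak was wider (1179 against 470 bp). The CDKN1A promoter itself held a peak in both lists, at the 53.5th percentile after ICM and the 61.7th in senescence by total signal. At the outermost 5′ end of the gene, 2251 bp away, neither list had one.

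The largest shift towards senescence was between MAP3K11, a kinase gene of the JNK pathway, and PCNX3. The ICM peak (chr11:65613971-65614712) had a total signal of 2475 at the 0.988th percentile and the senescent peak (chr11:65613808-65615827) 12150 at the 97.7th. The highest signal was 7 and 23 in each list's own units, and the summits, 1063 bp apart, were 195 bp from the 5′ end of MAP3K11 in the former and 297 bp from that of PCNX3 in the latter. Promoters of ELMO2, an engulfment gene (shift 89.3 percentiles by total and 70.4 by highest signal), and of MUS81, a structure-specific nuclease gene (86.7 and 80.4), shifted by both measures, as did a site 7320 bp from TMEM275 (84.5 and 65.1).

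At the other 4 sites the shift was smaller by highest than by total signal. The NAV1 promoter shifted by 92.5 percentiles by total but by 8.34 by highest signal, with widths of 783 bp in the ICM and 2304 bp in the senescent list. The promoter of the tubulin cofactor gene TBCC shifted by 92.1 and -1.30 percentiles, with widths of 894 and 2989 bp. Sites in SLC12A4, a potassium-chloride cotransporter gene (87.2 and 19.01), and in TIMP3, an inhibitor of metalloproteinases (83.8 and 1.60), did likewise. By highest signal, sites in SORCS2 (88.2 percentiles), at the promoter of GRN, which encodes progranulin (86.1), and by ZBTB7B (83.96) came after the MAP3K11 site (91.6).

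Sharing varied along the karyotype. ICM peaks were shared least on chromosome X (40.6%) and most on chromosome 19 (66.3%), and senescent peaks least on X (67.7%) and most on chromosome 21 (80.3%). Chromosome X held only 165 ICM and 99 senescent peaks, with intervals of 33.0 to 48.5 and 57.5 to 76.7. The ICM list held 1.17 times as many peaks as the senescent list on chromosome 19 and 1.67 times as many on X. Over the 23 chromosomes the shared portion of ICM peaks went with the number of protein-coding genes per Mb (Pearson's r 0.724, Spearman's rho 0.811), while for senescent peaks these values were 0.0382 and -0.159. The ratio of ICM to senescent peaks fell with the number of genes per Mb (-0.687 and -0.853). Shared peaks are nearly equal in number in both lists (9960 and 9806). The ratio is therefore tied to the 2 shared portions by arithmetic and is not a separate observation. All points come from the same 2 libraries, and chromosomes differ in base composition and mappability as well as in genes.

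**Figure D4:**
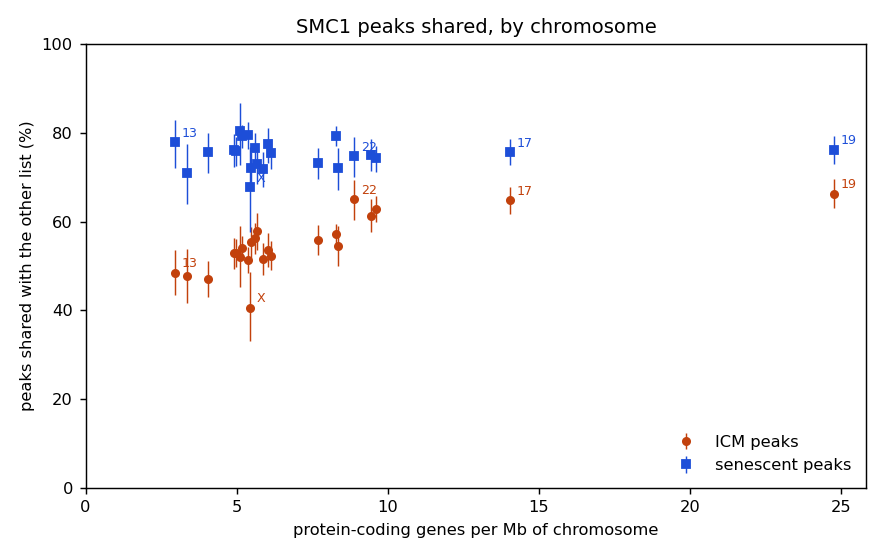
Percent of SMC1 peaks shared with the other list (y axis) on each of 23 chromosomes against protein-coding genes per Mb (x axis), with exact 95% intervals over peaks. ICM peaks (circles) span 40.6% on chromosome X to 66.3% on chromosome 19, and senescent peaks (squares) 67.7% to 80.3%.

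Among 19630 protein-coding genes whose 5′ end could be placed, 3693 (18.8%) had a promoter peak in both lists, 1838 (9.36%) in the ICM list only and 747 (3.81%) in the senescent list only. The excess on the ICM side was lost in lists of equal length, with 1170 against 1127 genes by total signal, and was turned round by highest signal, with 978 against 1524. A control SMC1 promoter peak was present for 95.3% of genes in both lists, 76.6% of those of the ICM list only and 54.4% of those of the senescent list only, and for 7.33% of genes in neither. In 120 and 60 of the single-list genes a peak of the other list reached into the window with its summit outside.

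**Figure D5:**
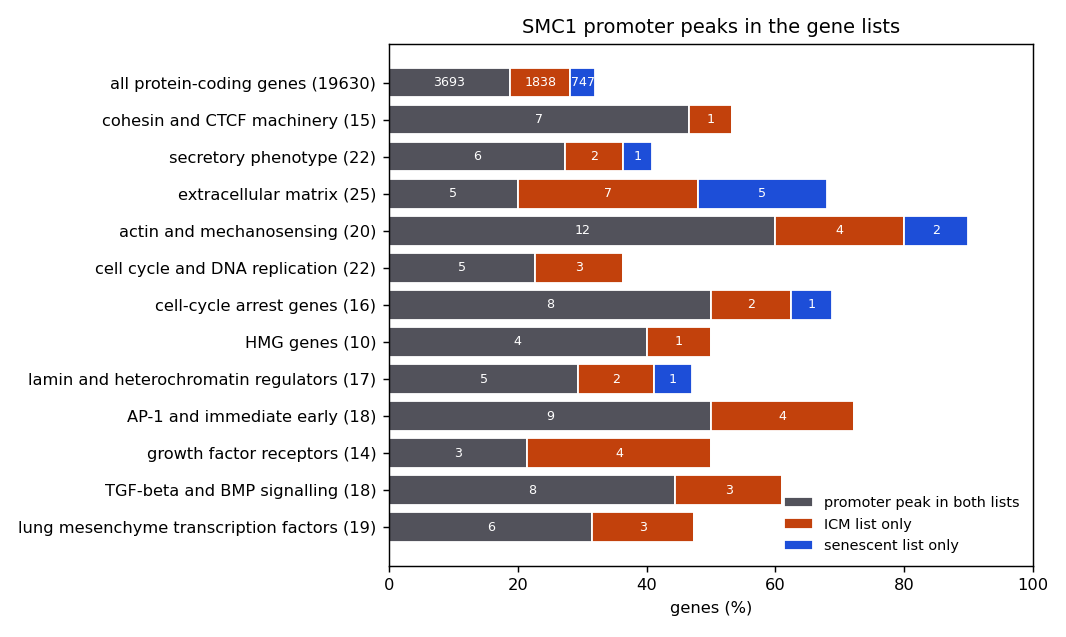
Percent of genes (x axis) with an SMC1 promoter peak in both lists, in the ICM list only or in the senescent list only, for 12 gene lists and for all 19630 protein-coding genes (list size in parentheses, number of genes in the bars). All genes stand at 18.8%, 9.36% and 3.81%, and the extracellular matrix list at 20%, 28% and 20%.

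The fibroblast label was checked against marker promoters. Of 12 fibroblast markers, 2 (COL1A2 and VIM) had a promoter peak in both lists, 2 (PDGFRA and PDGFRB) in the ICM list only and 2 (COL1A1 and COL6A1) in the senescent list only. The other 6, S100A4, FAP, COL3A1, THY1, LUM and DCN, had one in neither. None of the 6 epithelial or 3 endothelial markers with a 5′ end had a summit in the window in either list. Peaks of both lists reached into the window of the keratin gene KRT8, and a senescent peak into that of KRT18, with summits outside, and at the outermost 5′ end of KRT8, 23391 bp away, a senescent peak had its summit in the window. Of the leukocyte markers, CD68 had one in the ICM list (32.3rd percentile). A promoter peak of cohesin does not measure expression.

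Immediate early genes, which encode AP-1 subunits and related factors induced within minutes of a stimulus, had promoter cohesin in both lists for 9 of 18 members (50%, beside 18.8% of all genes), in the ICM list only for 4 (22.2%, beside 9.36%) and in the senescent list only for none (beside 3.81%). JUN stood at the 99.9th percentile after ICM and the 99.8th in senescence, FOSL2 at the 98.3rd and 99.4th, and EGR1 at the 97.7th and 98.5th. JUND (93.8th), IER3 (68.7th), FOS (51.2nd) and JUNB (33.7th) were in the ICM list only, each with a control peak. A senescent peak reached into the windows of FOS and JUNB with its summit outside. The 4 genes stayed on the ICM side in lists of equal length by total signal (22.2%, beside 5.96% of all genes). By highest signal IER3, JUNB and JUND did so (16.7%, beside 4.98%). None stood on the senescent side by either measure (beside 5.74% and 7.76%).

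Of the extracellular matrix genes, 5 of 25 had a promoter peak in both lists, 7 in the ICM list only (28%) and 5 in the senescent list only (20%), beside 9.36% and 3.81% of all genes. SPARC (92.9th percentile after ICM, 80.4th in senescence) and COL1A2 (84.96th and 81.9th) were in both. CCN2, the gene of connective tissue growth factor, was in the ICM list only at the 99.6th percentile and CCN1 at the 90.4th, and FN1, the fibronectin gene, at the 38.9th. COL5A2 (20.98th) and TNC (10.1st) ranked low, and COL4A1 and COL4A2 share a single peak at their divergent 5′ ends (47.0th). THBS1, the thrombospondin gene, at the 99.98th percentile, COL1A1 at the 98.9th, COL6A1 at the 88.3rd, FBN1 at the 49.4th and COL6A3 at the 20.04th were in the senescent list only. At all 5 of these an ICM peak reached into the window with its summit outside, as a senescent peak did at CCN2, COL4A1 and COL4A2. At these genes both lists thus had SMC1 at the promoter, with summits placed apart. At the outermost 5′ end of FBN1, 739 bp away, both lists had a promoter peak. In lists of equal length 5 matrix genes were on the ICM and 6 on the senescent side by total signal, and 4 and 7 by highest signal. These are 20% and 24% by total signal, beside 5.96% and 5.74% of all genes. By highest signal they are 16% and 28%, beside 4.98% and 7.76%.

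Genes of the actin cytoskeleton and its mechanical sensing had a promoter peak in both lists for 12 of 20 members (60%, beside 18.8% of all genes). Another 4 were in the ICM list only (20%, beside 9.36%) and 2 in the senescent list only (10%, beside 3.81%). VCL, encoding vinculin, stood at the 96.0th percentile after ICM and the 98.6th in senescence, TPM1 at the 97.2nd and 94.2nd and MYH9 at the 96.5th and 90.7th. CALD1, the caldesmon gene, stood at the 95.1st and the 16.1st at the 5′ end used here. At its outermost 5′ end, 68135 bp away, neither list had a promoter peak. TPM2 (49.4th), PXN (17.7th), ACTG1 (16.4th) and CNN1 (1.13rd) were in the ICM list only, and TAGLN (89.8th) and ACTB (32.1st) in the senescent list only. A senescent peak reached into the windows of PXN and ACTG1 with its summit outside. At equal length by total signal the counts became 1 and 5, with ANKRD1, YAP1 and MYL9 added on the senescent side, and by highest signal 1 and 6. These are 5% and 25% by total signal, beside 5.96% and 5.74% of all genes. By highest signal they are 5% and 30%, beside 4.98% and 7.76%.

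Growth factor receptor genes had a promoter peak in both lists for 3 of 14 members (21.4%, near the 18.8% of all genes), among them TGFBR2 (94.6th and 55.2nd percentile) and MET (77.0th and 75.2nd), and in the ICM list only for 4 (28.6%, beside 9.36% of all genes). These were PDGFRA (78.9th by total but 3.46th by highest signal), AXL (40.9th), PDGFRB (36.7th) and EPHA2 (9.67th). A senescent peak reached into the windows of PDGFRA and PDGFRB. At equal length by total signal PDGFRA, PDGFRB and AXL stood on the ICM side (21.4%, beside 5.96% of all genes) and none on the senescent side. By highest signal AXL alone was left, with TGFBR1 on the senescent side (7.14% each, beside 4.98% and 7.76%). Of the TGF-beta and BMP genes, 8 of 18 (44.4%, beside 18.8%) were in both lists, including TGFB2 (85.5th and 42.2nd) and LTBP1 (84.3rd and 44.7th). By total signal only ID3 (54.9th and 88.2nd) and SMAD6 (55.5th and 81.5th) of these 8 ranked higher in senescence. The others ranked lower, and the median shift over the 8 was -25.6 percentiles. By highest signal ID3 ranked lower in senescence (67.9th and 49.7th) and SMAD6 higher (6.66th and 30.2nd). INHBA (68.3rd), which encodes an activin subunit, LTBP2 (27.7th) and the repressor gene SKI (24.6th) were in the ICM list only (16.7%, beside 9.36%). None were in the senescent list only (beside 3.81%). At INHBA a senescent peak reached into the window, and at the outermost 5′ end, 2316 bp away, both lists had a promoter peak. At equal length by total signal INHBA and LTBP2 stood on the ICM side (11.1%, beside 5.96%) and none on the senescent side. By highest signal 3 TGF-beta genes stood on the ICM side (16.7%, beside 4.98%). On the senescent side stood 2, TGFB3 and SMAD6 (11.1%, beside 7.76%). Lung mesenchyme transcription factors were in both for 6 of 19 (31.6%, beside 18.8%), with TBX3 at the 99.6th and 94.5th percentile and SOX9 at the 99.2nd and 96.6th. In the ICM list only were RUNX1 (95.5th), PRRX1 (42.9th) and TWIST2 (27.4th), which is 15.8% of the list, beside 9.36% of all genes. At RUNX1 the senescent peak had its summit outside the window, and at the outermost 5′ ends of RUNX1 and PRRX1 neither list had a promoter peak. At equal length by total signal PRRX1 and RUNX1 were on the ICM side (10.5%, beside 5.96%) and none on the other. By highest signal RUNX1 was left on the ICM side, with TCF21 on the other (5.26% each, beside 4.98% and 7.76%).

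Secretory phenotype genes, whose products senescent cells release, were in both lists for 6 of 22 (27.3%, beside 18.8% of all genes). By total signal VEGFA stood at the 99.0th percentile after ICM and the 96.8th in senescence and IL6 at the 93.9th and 86.7th. TNFRSF11B, the osteoprotegerin gene, stood at the 55.0th and 2.66th by total but at the 16.3rd and 11.8th by highest signal. PLAU (41.0th) and CXCL2 (12.9th) were in the ICM list only (9.09%, beside 9.36%), and the chemokine gene CCL2 (15.6th) in the senescent list only (4.55%, beside 3.81%) without a control peak. A senescent peak reached into the window of PLAU, and at its outermost 5′ end, 1778 bp away, both lists had a promoter peak. At equal length PLAU and CCL2 were left on opposite sides by total signal (4.55% each, beside 5.96% and 5.74% of all genes). By highest signal TNFRSF11B and CCL2 were on the senescent side (9.09%, beside 7.76%) and none on the ICM side (beside 4.98%).

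Cell-cycle arrest genes of p53 and RB, a list that also holds the cyclin genes CCND1 and CCND2, were in both lists for 8 of 16. That is 50%, beside 18.8% of all genes. CDKN2B, which encodes p15, stood at the 98.5th and 91.2nd percentile and CDKN2A, the p16 gene, at the 66.6th and 41.0th with no control promoter peak. By highest signal CDKN2A stood at the 6.66th and 11.8th. SESN1 (14.4th and 64.1st), a sestrin gene, and BTG2 (71.96th and 87.8th), an antiproliferative gene, ranked higher in senescence. CCND1 (40.1st) and CDKN1B (30.2nd) were in the ICM list only (12.5%, beside 9.36%). MDM2, which encodes a ubiquitin ligase, was in the senescent list only (6.25%, beside 3.81%), without a control peak. It stood at the 62.0th percentile by total and the 5.36th by highest signal. At equal length the ICM and senescent sides held 2 and 2 of these genes by total signal (12.5% each, beside 5.96% and 5.74% of all genes). By highest signal they held 1 and 4 (6.25% and 25%, beside 4.98% and 7.76%), the 4 being BTG2, SESN1, CDKN2A and MDM2. Of the cell-cycle and replication genes 5 of 22 (22.7%, near the 18.8% of all genes) were in both lists, PCNA at the 99.4th and 95.6th percentile, AURKA at the 88.5th and 50.9th and TOP2A at the 84.1st and 56.5th, whereas MCM3 went from the 14.0th to the 63.5th. The replication helicase genes MCM4 (72.1st) and MCM7 (33.4th) and the cyclin gene CCNA2 (31.7th) were in the ICM list only (13.6%, beside 9.36%). None of the list was in the senescent list only (beside 3.81%). At equal length the counts were 3 and 1 (MCM3) by total signal (13.6% and 4.55%, beside 5.96% and 5.74% of all genes). By highest signal they were 1 and 0 (4.55% and 0%, beside 4.98% and 7.76%).

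HMG genes, which include the targets of ICM, were in both lists for 4 of 10 (40%, beside 18.8% of all genes). By total signal HMGB2 stood at the 88.9th percentile after ICM and the 83.8th in senescence, HMGN4 at the 93.7th and 59.0th and HMGA2 at the 82.2nd and 8.90th. By highest signal HMGA2 ranked low in both lists, at the 6.66th and 5.36th. HMGB1 was in the ICM list only at the 5′ end used here (68.7th by total and 92.3rd by highest signal, with a control peak), while at its outermost 5′ end, 151661 bp away, both lists held a peak. HMGB1 alone is 10% of the list, beside 9.36% of all genes in the ICM list only. At equal length by total signal HMGB1 stood on the ICM side (10%, beside 5.96%) and none on the senescent side. By highest signal HMGB1 stood on the ICM and HMGA2 on the senescent side (10% each, beside 4.98% and 7.76%). The cohesin and CTCF genes were in both for 7 of 15 (46.7%, beside 18.8%). Among them STAG1 stood at the 98.8th and 88.3rd percentile, CTCF at the 91.1st and 84.6th and PDS5B at the 88.97th and 34.7th. MAU2, a cohesin loader, stood at the 63.2nd and 85.8th. PDS5A (24.9th) was in the ICM list only (6.67% of the list, beside 9.36% of all genes). At equal length, by either measure, no cohesin or CTCF gene was on one side alone. Lamin and heterochromatin genes were in both for 5 of 17 (29.4%, beside 18.8%), among them TRIM28 (95.1st and 92.3rd) and CBX5. CBX5 stood at the 86.3rd and 92.0th by total but at the 97.7th and 58.3rd by highest signal. The DNA methyltransferase genes DNMT1 (43.9th) and DNMT3A (20.3rd) were in the ICM list only (11.8%, beside 9.36%). The Polycomb gene EED (10.2nd) was in the senescent list only (5.88%, beside 3.81%). At equal length by total signal 1 lamin or heterochromatin gene was on the ICM side (5.88%, beside 5.96% of all genes). On the senescent side were 2, EED and CBX1 (11.8%, beside 5.74%). By highest signal there were 1 and 1 (5.88% each, beside 4.98% and 7.76%).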

How the data were processed

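CUT&Tag libraries for SMC1 from ICM-treated and senescent IMR90 were compared through the deposited peak lists, 1 per library. According to the submitters' processing notes, the tools included Bowtie2 (version 2.3.4.1), Picard (2.20.7), deepTools and SEACR (1.3) on GRCh38. The authors mapped reads to hg38, calibrated them with carried-over E. coli reads and called peaks per library in stringent mode at the top 1%. The deposited signal values are total signal and highest signal per peak, all whole numbers in every list, with no scale common to the lists, so they were ranked within a list only. The number of reads behind a list is not given there, and intervals cover counting over peaks.

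The peak on mitochondrial DNA in each list was left out. Whole peaks were matched by an overlap of 1 bp or more (checked with bedtools 2.31.1), and pairs are mutual best partners by overlapping bases. A promoter peak has its summit within 1 kb of a gene's 5′ end. Genes came from RefSeq (GRCh38.p14). The 5′ end of 15812 protein-coding genes came from the RefSeq promoter table, which also gave the sequences (80.6% of genes matched), and that of 3818 from the outermost gene end with the strand from GENCODE v44, matched by symbol. A genome of another build (GRCh37) was not used here, so no peak sequence was read. Where several summits lay in a window, the peak of highest total signal was taken.

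Named single-list peaks are the 5 of highest total signal per list and position and the 3 of highest signal per list. Named pairs are the 8 most shifted by total and the 4 by highest signal in each direction. Named genes with many peaks are the 8 per list with most single-list peaks and none of the other list, and of the gene lists all members with a promoter peak in 1 list and up to 4 with one in both. Members named for lists of equal length alone were chosen after their values were seen. The peaks compared and the gene lists were chosen with earlier results of these data known. Shares carry exact (Clopper-Pearson) 95% intervals from scipy 1.17.1, and no test between conditions was run, as each has 1 library. The matching and ranking steps were tested on simulated data. Alternatives covered the overlap rule, list length, threshold, joining of near peaks, promoter definition and rank measure.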

Additional observations from a re-analysis of the deposited data

Results flagged for a closer look

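The mitochondrial genome, outside all comparisons of the report, gave 1 SMC1 peak per list. It took 20.55% of all listed SMC1 signal after ICM and 31.4% in senescence, both above the 12.4% of the control list. Its part in the ranks and lengths of the nuclear lists was not tested.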

How the results depend on the processing

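No paired analysis was possible because each group has 1 library and no result comes from a test. For the same reason no replicate could be left out. No alternative turned the sign of a value whose interval left out 0, and 15 of 45 values stayed within the interval of the value as reported or, for counts, within 1.5 times of it. The shares of ICM and of senescent peaks found in the other list, 55.9% and 75.9%, became 38.1% and 52.4% with 100 bp windows around summits, 47.2% and 65.05% when 50% of each peak had to overlap, 66.1% and 65.6% at equal list length by total signal, 61.4% and 60.9% by highest signal, 53.6% and 72.9% in the upper 50% of each list, and 58.2% and 77.5% when peaks up to 1 kb apart counted as shared, an alternative chosen after seeing the data. The difference in promoter share, ICM minus senescent single-list peaks, -0.00716 points as reported, was -4.14 points with summit windows, -10.3 at equal length by highest signal, -3.47 with a window of 2.5 kb and -2.93 with any base of the peak in the window. For a CTCF peak of the same condition it was -5.32 points, and -2.66 with summit windows, -15.2 with 50% overlap, -9.50 at equal length by highest signal and -3.31 in the upper 50%. For a control SMC1 peak it was 18.9 points, and 9.65 with 50% overlap, 24.3 at equal length by total and 8.70 by highest signal. The rank correlation of pairs, 0.551, was 0.609 with 50% overlap, 0.589 by highest signal and 0.492 by mean coverage, the last chosen after seeing the data. Promoters in the ICM list only numbered 1838, and 1170 and 978 at equal length by total and highest signal, and those in the senescent list only 747, and 1127 and 1524, so their order depends on list length and on the measure. With outermost gene ends, also chosen after seeing the data, they numbered 1791 and 743. Depth is unknown, so a site missing from a list may lie below its threshold.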
